A study of Mus musculus with 73 samples.

Results

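Microglia of 5xFAD mice that lack the receptor CD33 were compared with microglia of 5xFAD mice that carry it, at 4 months of age. The comparison was taken from the deposited expression table of the 4-month groups by genotype label: 4 libraries labelled 5xFAD;CD33-/- (here CD33 knockout) and 9 labelled 5xFAD, 13 of the 73 libraries in the series. Both groups were C57BL/6 mice of 4 months and both carry the 5xFAD transgenes, mutant human genes that cause amyloid deposition in the brain, so no knockout library here is free of the amyloid model. Per the labels, microglia were sorted from brain by fluorescence for CD11b and CD45, surface proteins that other myeloid and immune cells also carry, and messenger RNA was sequenced. The labels name no promoter or Cre for the CD33-/- genotype, so which other cells lack the gene is not stated. Whether the libraries come from different animals is not stated either, and p-values measure the spread between libraries, which may be technical. The same table holds 7 WT, 4 5xFAD;TREM2-/- and 2 5xFAD;CD33-/-;TREM2-/- libraries (here double knockout), which entered the fit for its estimate of spread, and a separate table at 8 months holds 12 CD33 knockout and 11 5xFAD libraries.

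CD33 is a receptor of the sialic acid-binding lectin family. The cytoplasmic tail of human CD33 carries inhibitory motifs that recruit the tyrosine phosphatases SHP-1 and SHP-2. Human CD33 dampens activating receptors that signal through the adaptor DAP12. Whether mouse CD33 signals in the same way is not shown by these data. TREM2 is one such DAP12-coupled receptor: it senses lipids and is needed for microglia to take up the disease-associated microglia (DAM) programme around amyloid. In humans, variation at the CD33 locus is linked to the risk of Alzheimer's disease. The comparison asks what loss of CD33 does to gene expression early in amyloid deposition.

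Cd33 (ENSMUSG00000004609, chr7:43524216-43544428, minus strand, GRCm38) was the gene to check first. Values are RPKM, reads scaled by gene length and by library size. In CD33 knockout replicates 1 to 4 Cd33 stood at 0.205, 0.0526, 0.0617 and 0.102 RPKM, which is 18, 5, 7 and 9 reads. In the 9 5xFAD libraries it ran from 115.2 through a median of 136.7 to 151.7 RPKM. The groups lay far apart, with a log2 change of -7.82 (SE 0.43, limma adjusted p = 1.17e-11), and all 4 knockout libraries lacked nearly all Cd33 reads. Trem2 was 844.2, 775.4, 703.5 and 727.3 RPKM in the knockouts and 649.8 to 875.4 in 5xFAD, with a median of 733.9. The groups overlapped and Trem2 did not pass (log2 change 0.05, interval -0.16 to 0.26, limma adjusted p = 0.790).

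Each CD33 knockout library held 34.2 to 41.96 and each 5xFAD library 28.94 to 79.65 times 1e6 recovered reads. Microglial identity was clear in all 13 libraries: the summed RPKM of 10 microglia markers was 17070 to 21710 in the knockouts and 18340 to 23210 in 5xFAD, and no marker of that list was called. Other cells were present to unequal degrees. The sum of 8 endothelial markers was 370.5, 843.1, 869.3 and 337.2 in knockout replicates 1 to 4, 980.1 in 5xFAD replicate 1 and 147.9 to 285.8 in the other 5xFAD libraries. Knockout replicates 2 and 3 and 5xFAD replicate 1 therefore stand apart, and results are given with and without these 3 libraries, a choice made after seeing the data. Sex was unequal too: knockout replicate 1 and 5 5xFAD libraries held Y-linked reads without Xist, the RNA of the inactive X chromosome, and knockout replicates 3 and 4 and 4 5xFAD libraries held Xist. Knockout replicate 2 held both, at 14.02 RPKM of Xist and 10.59 RPKM summed over Y-linked genes. In bulk samples fewer cells of a type and less RNA per cell cannot be told apart.

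Of 13024 genes tested, 638 passed in limma at an adjusted p under 0.05 (4.90%), 247 higher (1.90%) and 391 lower (3.00%) in CD33 knockout. Most changes were small: the median log2 change was 0.78 among the higher genes and -0.35 among the lower ones, and 70 genes rose and 14 fell by at least 2-fold. The median over all tested genes was -0.041. With median-ratio scaling 479 genes passed and 45.3% of them were higher, against 38.7% here. The count turned on single libraries. Without single knockouts it was 1290 (replicate 1), 22 (replicate 2), 24 (replicate 3) and 2343 (replicate 4). Without single 5xFAD libraries it was 2298 (replicate 1), 106 (replicate 7), 418 (replicate 8), 203 (replicate 9), 156 (replicate 11) and 122 (replicate 13). Without the 3 libraries highest in endothelial markers, which leaves 2 knockouts against 8 5xFAD libraries, 17 genes passed (0.131%), all among the 638.

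The 2 endothelial-high knockouts led most of the calls. In the 247 higher genes the median log2 difference from the 5xFAD mean was 0.44, 1.21, 1.1 and 0.23 in knockout replicates 1 to 4, and 0.44 in 5xFAD replicate 1. In the 391 lower genes it was -0.27, -0.52, -0.53 and -0.09, and -0.16 in 5xFAD replicate 1. Replicates 2 and 3 were the top 2 of the 4 knockouts in 209 of the 247 higher genes, and the bottom 2 in 318 of the 391 lower ones. Over all tested genes they were the top 2 in 2897 and the bottom 2 in 4425. Replicate 4, whose endothelial sum was the lowest of the knockouts, lay nearest to 5xFAD in both directions. Knockout replicates 2 and 3 were also the highest libraries in summed oligodendrocyte markers (232.2 and 213.0, 5xFAD at most 142.3). The same held for astrocyte markers (51.53 and 56.81, 5xFAD at most 42.56). The part of endothelial or other cell content in these calls was not tested.

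**Figure D1:**
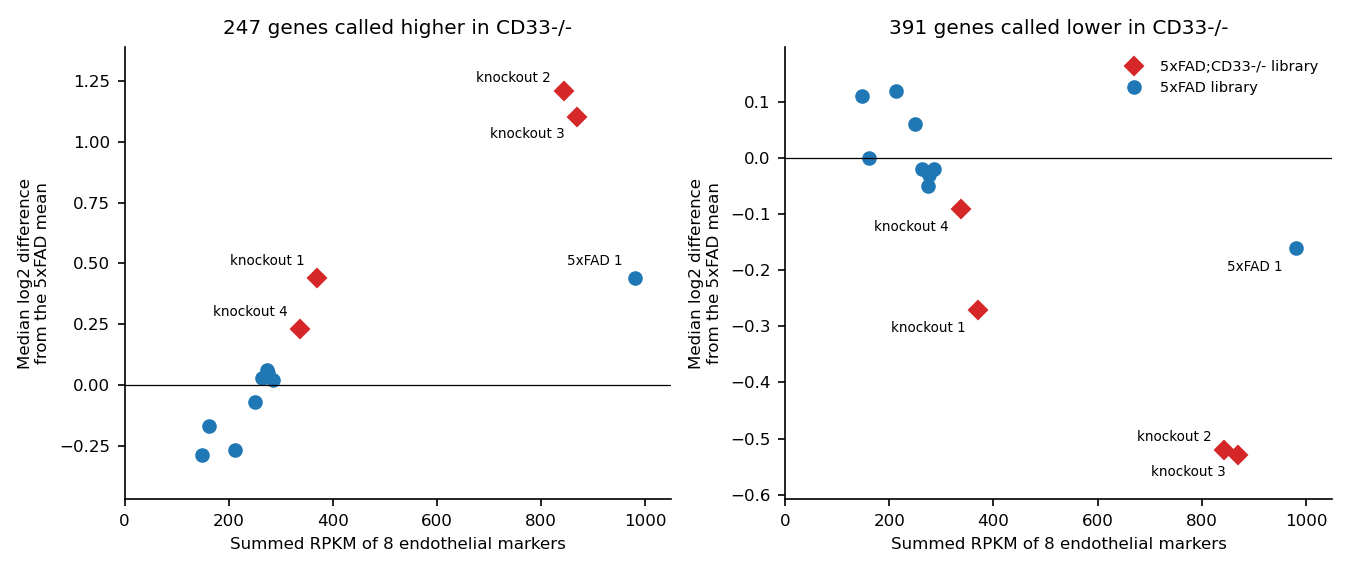
Each point is 1 library, with the summed RPKM of 8 endothelial markers on the x axis and, on the y axis, the median log2 difference from the 5xFAD mean over the 247 genes called higher (left) or the 391 called lower (right). Knockout replicates 2 and 3 lie at 1.21 and 1.1 on the left and -0.52 and -0.53 on the right, while 5xFAD replicate 1, with the highest endothelial sum at 980.1, lies at 0.44 and -0.16.

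A small group of genes did not depend on any single library. In 118 genes (0.906%) the 4 knockout and 9 5xFAD libraries did not overlap, 27 higher and 91 lower, and 81 of these were among the calls. In each of the 13 fits that left out 1 library, 22 features stayed called, 10 of them higher and 12 lower, and none of the 22 overlapped between groups. Of these, 14 lie within 10 Mb of Cd33 on chromosome 7. Among the 22, Ftl2, Gm15545, Gm24098, Gm23062 and both Slc6a16 identifiers reached 1 RPKM, the level needed for testing, only in libraries of the CD33-/- genotypes. They were tested only because they were high there, so their lack of overlap and p-values are no separate support. The features named below outside the largest changes and the gene lists, among them Irf3, Fcgrt, S1pr2, Lefty1, Gm11478, Gm23062, Gm24098 and Gm24644, were chosen after their values were seen.

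Genes beside Cd33 changed in both directions. Within 10 Mb of Cd33 133 genes were tested and 26 passed (19.5%), 9 higher and 17 lower, against 612 of 12891 elsewhere (4.75%). Identifiers without a position, among them the Slc6a16 identifier ENSMUSG00000098018, are counted as elsewhere throughout. The calls clustered on one side: 18 of 43 tested genes lying 1 to 2 Mb towards higher coordinates were called, and 3 of 16 within the first 1 Mb of that side, Cd33 itself included. Farther out on that side 2 of 15 were called from 2 to 3 Mb, none of 9 from 3 to 5 Mb and none of 7 from 5 to 10 Mb. Towards lower coordinates 1 of 8 was called within 1 Mb, none of 13 from 1 to 5 Mb and 2 of 22 from 5 to 10 Mb. Without the 3 libraries 13 of the 17 remaining calls were within 10 Mb of Cd33.

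**Figure D2:**
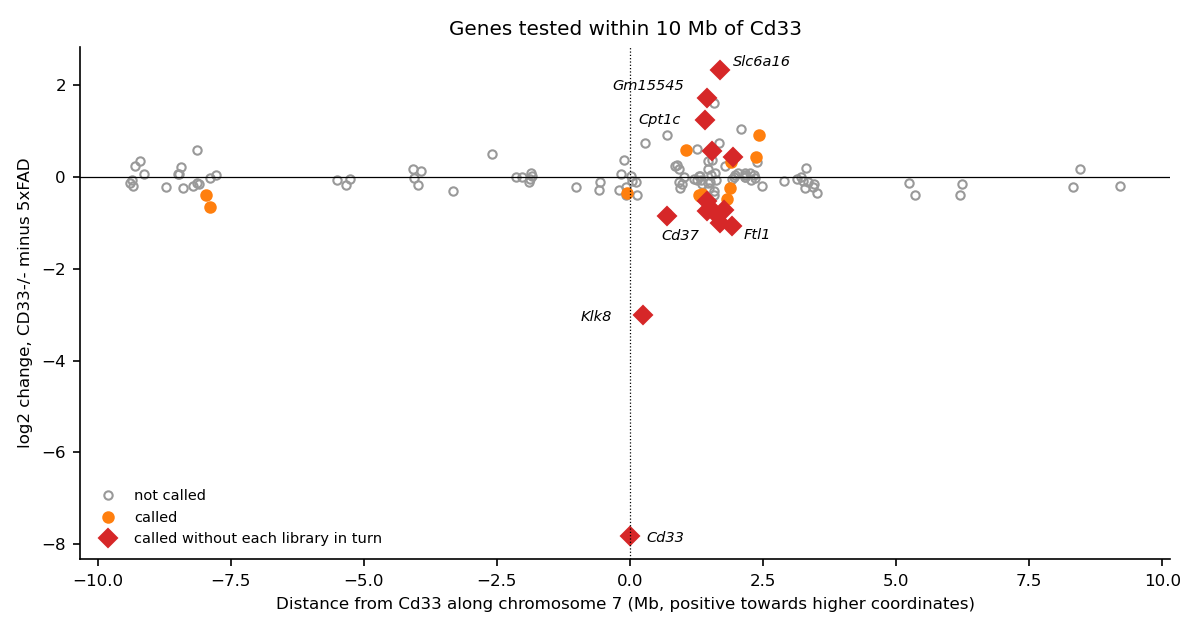
Each point is 1 of the 133 tested genes within 10 Mb of Cd33, with its distance from Cd33 in Mb on the x axis and its log2 change in CD33 knockout against 5xFAD on the y axis; colours mark genes that were called and those that stayed called without each library. The called genes gather between 1 and 2 Mb on the higher-coordinate side, where 18 of 43 were called, with both increases and decreases among them.

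Klk8, which encodes a secreted serine protease of the kallikrein family (chr7:43797577-43803826, plus strand), lay closest to Cd33 among the strongly changed genes, at 0.253 Mb. It stood at 10.3, 8.15, 7.02 and 6.86 RPKM in the 4 knockouts and ran from 58.0 through 65.1 to 87.5 RPKM in 5xFAD. The 4 knockouts lay close together and far below every 5xFAD library (log2 change -3.005 ± 0.12, SE, adjusted p = 2.1e-15, and -2.94 without the 3 libraries). Within the 3 title codes that held both genotypes, the log2 difference was -3.02, -2.97 and -3.16. The title code is a number at the start of each library title, whose meaning is not stated.

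Cd37, a tetraspanin of leukocyte membranes (chr7:45233632-45239115), was 81.6, 73.8, 69.3 and 95.3 RPKM in the knockouts and 144.3 to 180.6 RPKM in 5xFAD, with a median of 161.5. Each knockout lay below every 5xFAD library, and the mean fell from 160.2 ± 10.7 (SD, n = 9) to 80.0 ± 11.4 RPKM (SD, n = 4), a log2 change of -1.01 ± 0.072 (SE, limma adjusted p = 9.85e-10). Trpm4, a calcium-activated cation channel, fell by 0.72 on the log2 scale (adjusted p = 4.72e-05). 2410002F23Rik, a gene at 0.702 Mb, fell by 0.84 (adjusted p = 2.64e-05). Irf3, a transcription factor of the type I interferon response, stood at 13.2, 12.4, 11.6 and 13.9 RPKM in the knockouts and 15.4 to 21.1 in 5xFAD (-0.53 ± 0.082, SE, adjusted p = 0.000659). Its call was lost without the 3 libraries (-0.46, adjusted p = 0.248).

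Other neighbours were higher. Slc6a16, an orphan member of the neurotransmitter transporter family next to Cd37 (chr7:45241085-45273367, plus strand), was 2.83, 1.89, 1.65 and 2.23 RPKM in the knockouts and 0 to 0.0715 in 5xFAD. The median 5xFAD library was at 0, and the gene was detected in each knockout (log2 change on the log2(RPKM + 0.5) scale 2.33 ± 0.14, SE, adjusted p = 1.49e-11). A second identifier with the same symbol, ENSMUSG00000098018, which the annotation used here does not hold, showed 0.914, 1.12, 1.65 and 0.834 RPKM against 0 to 0.0502 (1.66 ± 0.14, SE, adjusted p = 1.29e-08). Fcgrt, the heavy chain of the neonatal Fc receptor, was 126.1, 129.5, 137.5 and 140.2 RPKM in the knockouts and 80.1 through 86.4 to 118.4 in 5xFAD. The highest 5xFAD value was that of replicate 1, and it still lay below each knockout (0.56 ± 0.089, SE, adjusted p = 0.00106, 0.60 without the 3 libraries). Cpt1c, the brain form of carnitine palmitoyltransferase, rose by 1.24 (adjusted p = 5.73e-05) and Dhdh, dihydrodiol dehydrogenase, by 0.44 (adjusted p = 0.000255).

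At 1.44 Mb an antisense gene and its partner moved in opposite directions. Gm15545 (plus strand) was 2.46, 3.39, 3.15 and 4.35 RPKM in the knockouts and 0.366 to 0.863 in 5xFAD (1.72 ± 0.13, SE, adjusted p = 3.74e-09). Bcl2l12, a BCL2-like gene on the minus strand whose annotated span overlaps Gm15545 and the start of Irf3, was 4.86, 3.89, 3.11 and 5.11 RPKM against 6.56 to 8.79 (-0.74 ± 0.096, SE, adjusted p = 5.01e-05). The libraries were stranded, but the strand setting of the count is not given in the sources used here. If strand was not used, reads of overlapping genes cannot be told apart, so these values are uncertain.

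The double knockout libraries, which took no part in the contrast, carry the same CD33-/- genotype. In 18 of the 22 features kept without each library, both double knockout libraries lay outside the range of the 11 WT and 5xFAD;TREM2-/- libraries, on the side where the CD33 knockout lay. Ftl2, Gm15545, Gm23062 and both Slc6a16 identifiers are among these 18. They were tested only because libraries of the CD33-/- genotypes, double knockouts included, reached 1 RPKM, so their place in this count is no separate support. Over all tested genes both lay outside, on either side, in 1143 of 13024 (8.78%), and among the 638 calls they lay outside on the same side in 155 (24.3%). Klk8 was 12.8 and 8.01 RPKM in the double knockouts, 68.8 to 98.1 in WT and 62.0 to 77.2 in 5xFAD;TREM2-/-. Slc6a16 was 1.53 and 2.70 RPKM against at most 0.0761, and Cd37 was 90.9 and 110.6 against 159.0 to 187.4. The exceptions among the 22 were Dhdh, S1pr2, Gm24644 and Gm24098. The 9 5xFAD libraries were not part of the range in this count. Double knockout replicate 2 lay inside the 5xFAD range for Irf3 (15.89 RPKM, 5xFAD 15.37 to 21.11). Replicate 1 did so for Lefty1 (5.67, 5xFAD 4.66 to 9.58) and Gm11478 (183.1, 5xFAD 150.3 to 223.7). Double knockout replicate 1 is the library labelled so that held 14.02 RPKM of Cd33 (1306 reads) together with Xist and Y-linked reads, while replicate 2 had 0 Cd33 reads, a floor of 0.0242 RPKM (3 reads, which covers counting error alone).

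**Figure D3:**
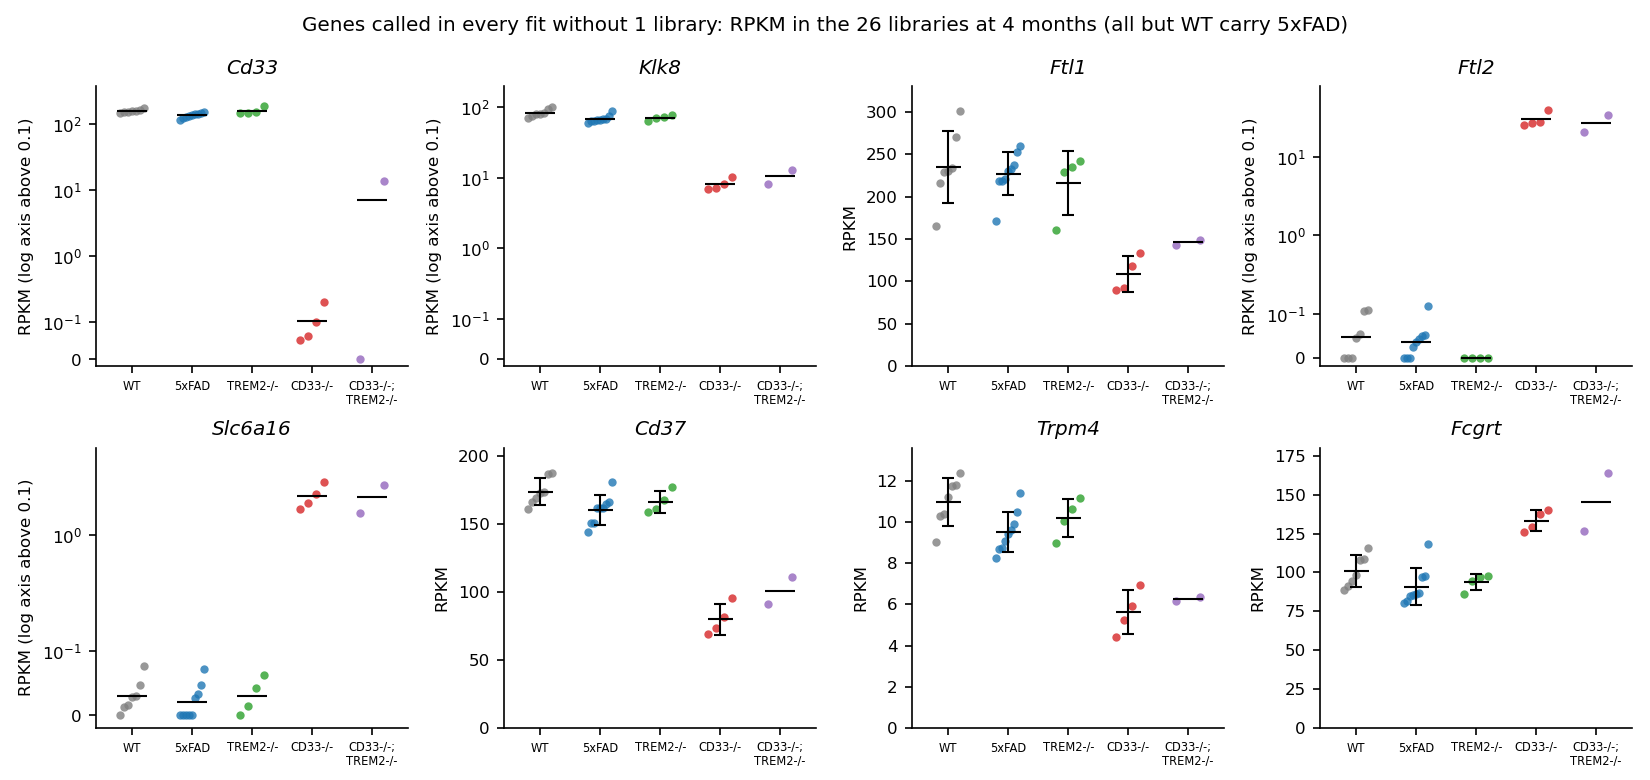
RPKM of 8 genes that stayed called without each library, 1 point per library, in the 5 groups at 4 months (7 WT, 9 5xFAD, 4 5xFAD;TREM2-/-, 4 5xFAD;CD33-/-, 2 double knockout); Cd33, Klk8, Ftl2 and Slc6a16 have a log axis above 0.1 and show the mean as a bar, the other panels show mean ± SD where a group has at least 3 libraries. In each panel the 6 libraries of the CD33-/- genotypes lie outside the range of the other 20. Ftl2 and Slc6a16 were tested only because libraries of these genotypes reached 1 RPKM.

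The largest increase belonged to Ftl2, a processed copy of the ferritin light chain gene Ftl1. Ferritin light chain is a subunit of the shell in which cells store iron. Ftl1 lies on chromosome 7 at 1.91 Mb from Cd33 (chr7:45457944-45459884, minus strand), and Ftl2, annotated as a processed pseudogene, lies on chromosome 4 (chr4:125504288-125504839, plus strand), in the gene Grik3. Ftl2 stood at 39.8, 26.8, 25.4 and 28.1 RPKM in the knockouts (750, 548, 619 and 531 reads) and at 0 to 0.128 RPKM in 5xFAD, where no library had more than 2 reads. The change was 5.81 ± 0.12 on the log2(RPKM + 0.5) scale (SE, adjusted p = 1.26e-21). Ftl1 moved the other way, from 171.7 through 230.7 to 259.8 RPKM in 5xFAD to 118.3, 91.9, 90.5 and 133.4 in the knockouts (-1.07 ± 0.13, SE, adjusted p = 2.64e-05). Both calls held without the 3 libraries.

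The sequences of the copies bear on how such reads can be counted, since reads of 50 bases were assigned to genes. Over the 552 coding bases Ftl2 and Ftl1 differ at 7 positions (98.73% identical), and 273 of the 503 windows of 50 bases are the same in both. A read over a differing base matches one gene better than the other. Counted from 1 at the A of the Ftl1 start codon, the last 2 substitutions from Ftl1 to Ftl2 are G468A and G504A.

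Gm24098 and Gm23062, both annotated as microRNA genes, hold copies of the end of the same coding sequence, and both appear among the 22 kept features. Gm24098 (chr15:38238572-38238680) had 6, 5, 2 and 7 reads in the knockouts and no read in any 5xFAD library. Gm23062 (chr16:94169302-94169411) had 12, 12, 12 and 5 reads in the knockouts and 1 read in 1 of the 9 5xFAD libraries. These are few reads, and the groups did not overlap (limma adjusted p = 6.36e-06 for Gm24098 and 9.7e-08 for Gm23062). Both features were tested only because CD33-/- libraries reached 1 RPKM, so the lack of overlap and the p-values are no separate support. The last 91 coding bases of Ftl1 and the matching stretches of the copies are shown to compare them, from the GRCm38 sequence and GENCODE mouse release M21 models, 5′ to 3′ on each gene's own strand (Ftl1 chr7:45458107-45458197, minus; Ftl2 chr4:125504749-125504839, plus; Gm24098 chr15:38238572-38238662, plus; Gm23062 chr16:94169319-94169409, minus). Capitals mark, in Ftl1, each position at which any copy differs and, in a copy, its own differences from Ftl1.
Ftl1: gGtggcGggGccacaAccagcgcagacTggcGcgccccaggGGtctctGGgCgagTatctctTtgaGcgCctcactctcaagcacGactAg
Ftl2: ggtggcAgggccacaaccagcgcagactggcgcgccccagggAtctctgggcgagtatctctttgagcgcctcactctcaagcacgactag
Gm24098: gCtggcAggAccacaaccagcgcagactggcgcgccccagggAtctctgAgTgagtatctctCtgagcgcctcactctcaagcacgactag
Gm23062: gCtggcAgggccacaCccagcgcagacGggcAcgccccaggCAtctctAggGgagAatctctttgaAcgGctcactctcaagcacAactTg

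All 3 copies share G468A and G504A. No 50-base window of Gm24098 (0 of 42) or Gm23062 (0 of 44) is the same as in Ftl1. Ftl2 took 10.2, 8.97, 8.65 and 6.63% of the reads of Ftl1 and Ftl2 together in the knockouts, 4.46 and 7.34% in the double knockouts, and at most 0.0198% in 5xFAD. Ftl1 and Ftl2 together gave 170.1 to 234.2 reads per 1e6 reads in the knockouts and 296.5 to 414.1 in 5xFAD, so the sum was lower in each knockout as well. This sum did not separate the double knockouts, at 278.6 and 260.1. WT replicate 1 (269.7) and 5xFAD;TREM2-/- replicate 1 (265.3) lay between these values. In the double knockouts Ftl2 was 20.6 and 33.7 RPKM, while WT lay between 0 and 0.113 and all 4 5xFAD;TREM2-/- libraries at 0. Which locus the reads came from cannot be told from per-gene values, and each of these values is uncertain for that reason.

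A second pair had a similar layout. Gm11478, a processed pseudogene on chromosome 11 (chr11:86630428-86631026), is 98.0% identical over 600 aligned bases to Rpl13a, a ribosomal protein gene at 1.58 Mb from Cd33 (chr7:45125558-45128761). Gm11478 was 323.0, 292.5, 294.8 and 257.3 RPKM in the knockouts and 150.3 through 183.5 to 223.7 in 5xFAD (0.68 ± 0.11, SE, adjusted p = 0.000771, and 0.67 with adjusted p = 0.117 without the 3 libraries). Rpl13a was 83.1, 83.8, 81.9 and 74.3 RPKM against 86.9 to 115.2, without overlap, and did not pass (-0.30 ± 0.10, SE, adjusted p = 0.0728). Reads can be shared between these copies too, so both values are uncertain.

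Of the kept features elsewhere in the genome, S1pr2, a sphingosine-1-phosphate receptor, fell by 0.56 (adjusted p = 0.000492) and Lefty1, a secreted antagonist of the TGF-beta family, by 0.74 (adjusted p = 0.00145). Gm24644, a small Cajal body RNA, was 0, 0.195, 0 and 0.211 RPKM in the knockouts and 0.776 to 3.38 in 5xFAD (-1.94 ± 0.31, SE, adjusted p = 0.0014). The calls of all 3 were lost without the 3 libraries, with log2 changes of -0.46, -0.58 and -1.89.

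Most of the other large increases followed the endothelial-high libraries. Nostrin, which handles endothelial nitric oxide synthase, was 5.83, 21.1, 20.4 and 5.06 RPKM in knockout replicates 1 to 4, 11.2 in 5xFAD replicate 1 and 2.66 in the median 5xFAD library (1.72 ± 0.39, SE, adjusted p = 0.0257). Plat, tissue plasminogen activator, was 21.5, 82.9, 78.2 and 16.2 RPKM against 6.85 through 11.2 to 31.7 (1.71 ± 0.38, SE, adjusted p = 0.0242). In both genes knockout replicates 2 and 3 were the highest and 5xFAD replicate 1 was the highest of its group. The same order held for Map3k6, a stress-activated kinase (log2 change 1.96), Fam107a, an actin-associated protein induced by stress (1.86), Xdh, xanthine dehydrogenase (1.79), Zbtb16, a zinc finger factor (1.72), Ndrg1, a hypoxia- and stress-responsive protein (1.63), Fmo2, a flavin monooxygenase (1.52), and Stra6, a receptor for retinol-binding protein (1.52). None of these 9 genes was called without the 3 libraries, where their log2 changes were 0.65 to 1.02. The glucose transporter gene Slc2a1, abundant in brain endothelium, was 197.3, 506.3, 487.1 and 139.3 RPKM in the knockouts and 299.9 in 5xFAD replicate 1, against a 5xFAD median of 105.4 (1.27 ± 0.31, SE, adjusted p = 0.0338).

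Of the marker lists, that of oligodendrocytes held 5 higher calls, the endothelial list 1 and the others none. All 8 endothelial markers had a log2 change above 0, with a median of 0.98 (0.59 without the 3 libraries), and 1 of 8, the VEGF receptor gene Flt1, was called higher. Their unadjusted p-values were under 0.05 in all 8, against 27.6% of all tested genes, and voom called 2, against 7.85%. Of 8 oligodendrocyte markers 5 were called higher, Mag, Mal, Mbp and Mobp among them, where 1.90% of all tested genes were, with a list median of 0.70 (0.29 without the 3 libraries and none called). Their summed RPKM was 143.1, 232.2, 213.0 and 108.1 in knockout replicates 1 to 4 and 87.07 to 142.3 in 5xFAD. Mobp, a myelin protein, was 3.47, 6.59, 6.34 and 2.22 RPKM in the knockouts against 1.07 through 1.63 to 3.01 (1.13 ± 0.21, SE, adjusted p = 0.00618). Astrocyte markers (0 of 7 called, median 0.47), mural cell markers (0 of 5, median 0.45), border-associated macrophage markers (0 of 8, median 0.32) and neutrophil markers (0 of 8, median 0.35) had no call in limma. Unadjusted p-values were under 0.05 in 6, 0, 4 and 0 of them, and voom called 1 astrocyte marker and none of the others. Neutrophil markers differed in that their median was 0.83 without the 3 libraries. Monocyte markers had 0 of 4 called (median 0.39, 2 at an unadjusted p under 0.05, none in voom). The single neuron marker and the single NK cell marker that passed the filter were not called (0.92 and -0.81), and no T cell marker reached it.

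A haemoglobin gene and an immunoglobulin segment were among the largest decreases. Hba-a2, a haemoglobin alpha chain, was 1.98, 3.45, 3.68 and 1.05 RPKM in the knockouts and 2.40 through 8.05 to 19.7 in 5xFAD (-1.498 ± 0.44, SE, adjusted p = 0.0489). Within the 3 title codes that held both genotypes its log2 difference was -1.37, 0.45 and -1.25, so the direction did not hold in 1 of them. Of the 5 erythrocyte markers 1 was called, Hba-a2, with a list median of -1.5, 5 at an unadjusted p under 0.05 and none called by voom. Ighj3, a joining segment of the immunoglobulin heavy chain, was 8.09, 6.31, 9.62 and 6.20 RPKM against 11.1 to 39.1, without overlap (-1.27 ± 0.33, SE, adjusted p = 0.038). Of 3 tested B cell markers Cd79b and Ighm were called lower, at -0.38 and -0.34, and Igkc was not called (-0.39, limma adjusted p = 0.819). Which cells these reads came from was not tested. The microRNA genes Mir23a and Mir24-2, neighbours on chromosome 8, changed by -1.66 and -1.5 on the log2 scale (adjusted p = 0.0277 and 0.0284), and knockouts overlapped 5xFAD in both. Cd276, an immune checkpoint molecule of the B7 family, was 6.77, 4.07, 3.73 and 11.5 RPKM against 8.85 to 13.3 (-0.88 ± 0.19, SE, adjusted p = 0.0242), with knockout replicate 4 inside the 5xFAD range. Adamts16, a secreted metalloprotease, fell by 0.77 (adjusted p = 0.0257). For this gene knockout replicates 1 and 4 (3.53 and 4.76 RPKM) lay inside the 5xFAD range of 3.49 to 6.75. None of these calls held without the 3 libraries.

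Il1b, Il1rn and Cxcl1 rose, while the list of interleukin-1 and inflammasome genes was mixed. Of its 15 tested members 2 were called higher (Il1b and Il1rn) and 2 lower, with a median of 0.06 and 8 above 0. Over all tested genes 1.90% were called higher and 3.00% lower. Unadjusted p-values were under 0.05 in 8 of the 15, against 27.6% of all tested genes, and voom called 6, against 7.85%. Il1b, the inflammatory cytokine, was 340.6, 333.9, 255.7 and 120.6 RPKM in knockout replicates 1 to 4 and 56.4 through 103.5 to 175.2 in 5xFAD. Replicates 1, 2 and 3 lay above every 5xFAD library and replicate 4 lay within their range (1.17 ± 0.26, SE, adjusted p = 0.0257). Replicate 1, with an endothelial sum of 370.5, had the highest Il1b value, and 5xFAD replicate 1, with the highest endothelial sum, had 103.2 RPKM. These are single libraries, and the part of endothelial content in the Il1b change was not tested. Il1rn, the receptor antagonist, was 5.52, 6.89, 6.68 and 2.72 RPKM against 1.24 through 1.64 to 3.50 (1.16 ± 0.24, SE, adjusted p = 0.0169). Cxcl1, a chemokine that attracts neutrophils, was 10.9, 17.7, 20.99 and 6.51 RPKM against 2.36 through 4.12 to 8.91 (1.53 ± 0.28, SE, adjusted p = 0.00618). In all 3 genes replicate 4 was the lowest knockout and overlapped 5xFAD. None was called without the 3 libraries, where the fit holds 2 knockouts that differ in these genes (0.90, 0.74 and 0.97).

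Within the title codes that held both genotypes, Il1b differed by 1.71, 2.56 and 0.70 on the log2 scale. The 2 lower members of the interleukin-1 list were Aim2, a DNA sensor (-0.43), and Gsdmd, a pore-forming effector (-0.29). Of 20 inflammatory cytokine and feedback genes 1 was called, Tnfaip2 (0.79), and the list median was 0.10. Of 16 chemokine genes Cxcl1 and Cxcl12 were called (1.53 and 1.15, median 0.30), and Cxcl12 was highest in 5xFAD replicate 1 within its group. No immediate early or dissociation response gene was called in limma or voom (0 of 23, median -0.27, 6 at an unadjusted p under 0.05), a list that tissue dissociation is known to raise. Of 24 interferon-response genes 1 was called, Ifi44 (0.85, median 0.19). MHC class I (0 of 11, median 0.04) and class II genes (0 of 6, median -0.11) had no call in limma or voom and none at an unadjusted p under 0.05. Over all tested genes 4.90% were called in limma. Unadjusted p-values were under 0.05 in 7 cytokine and feedback, 9 chemokine and 3 interferon-response genes, and voom called 3, 2 and 2 of them.

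**Figure D4:**
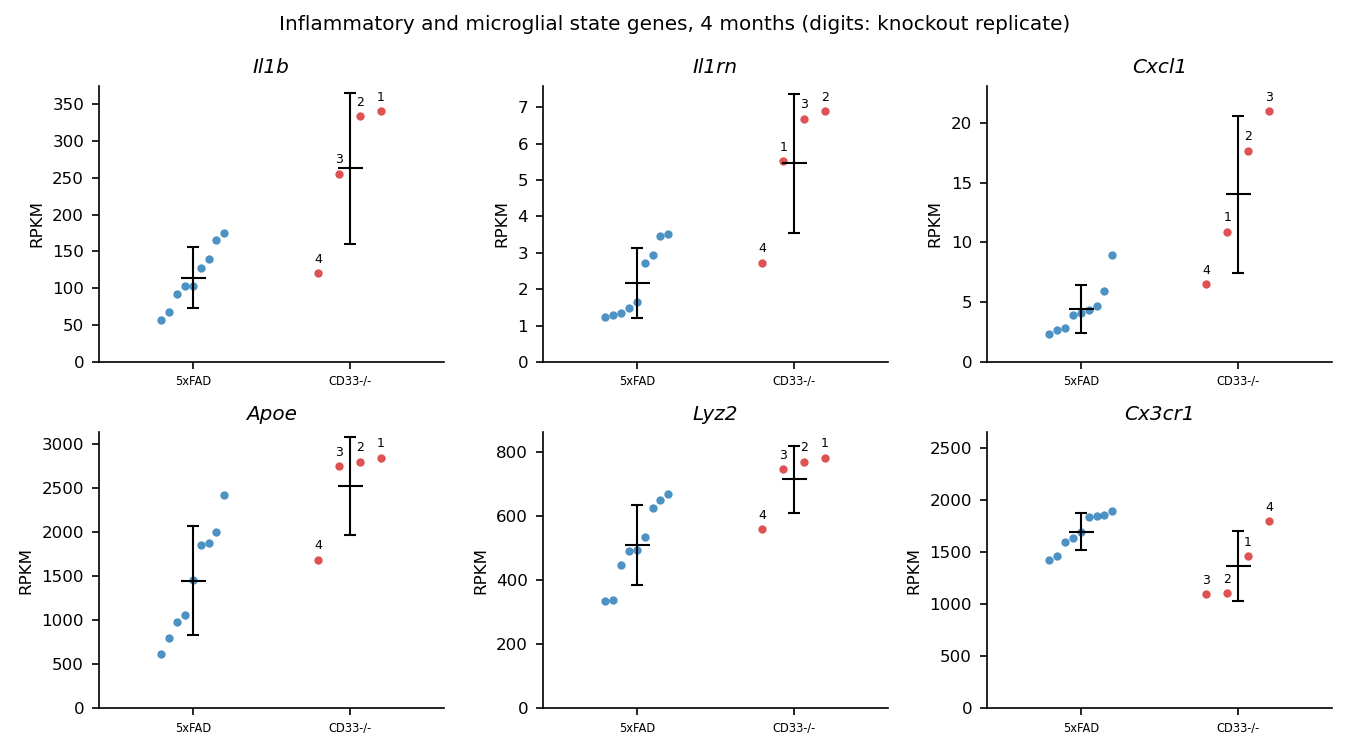
RPKM of 6 inflammatory and microglial state genes, 1 point per library with the mean ± SD, in 9 5xFAD and 4 CD33 knockout libraries; digits give the knockout replicate. Replicate 4 is the lowest knockout for Il1b (120.6), Il1rn, Cxcl1, Apoe (1685) and Lyz2 (559.6), and the highest for Cx3cr1 (1799).

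In the DAM and homeostatic lists 1 of 24 stage 2, 0 of 10 stage 1 and 2 of 20 homeostatic genes passed, where 4.90% of all tested genes did. Unadjusted p-values were under 0.05 in 9 stage 2 and 10 homeostatic genes, against 27.6% of all tested genes. The voom fit called 3 stage 2 and 2 homeostatic genes, against 7.85% of all tested genes. All 24 tested stage 2 DAM genes, those that need TREM2, had a log2 change above 0, with a median of 0.28 against -0.041 over all tested genes, and 1 was called, Fabp5, a fatty acid binding protein (0.62 ± 0.18, SE, adjusted p = 0.0475). All 10 stage 1 genes were above 0 as well, with a median of 0.20 and none called in limma or voom (4 at an unadjusted p under 0.05). Apoe, the lipid carrier, was 2843, 2797, 2746 and 1685 RPKM in the knockouts and 619.2 through 1456 to 2417 in 5xFAD. Replicates 1 to 3 lay above every 5xFAD library, and the gene did not pass (0.90 ± 0.29, SE, adjusted p = 0.0644). Lyz2, lysozyme, had the same order, with 782.6, 770.0, 746.3 and 559.6 RPKM against 335.7 to 667.8 (0.52 ± 0.16, SE, adjusted p = 0.0607). Gpnmb, a glycoprotein of lipid-laden phagocytes, was 4.33, 12.5, 7.67 and 2.05 RPKM against 0.730 to 4.86 and did not pass (1.03 ± 0.37, SE, adjusted p = 0.0899).

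All 20 homeostatic genes had a log2 change below 0, with a median of -0.23 (-0.07 without the 3 libraries), and 2 were called lower: Gpr165, an orphan receptor (-0.66, adjusted p = 0.0493), and Sall1, the transcription factor of microglial identity (-0.42, adjusted p = 0.0338). Cx3cr1, the fractalkine receptor, was 1462, 1106, 1094 and 1799 RPKM in the knockouts and 1424 through 1689 to 1897 in 5xFAD. Replicates 2 and 3 lay below every 5xFAD library and the other knockouts lay within their range (-0.34 ± 0.11, SE, adjusted p = 0.0631). P2ry12 and Tmem119 did not pass (-0.29 and -0.24, adjusted p = 0.215 and 0.133), and their sign turned with a covariate of endothelial markers (P2ry12, 0.03) or of oligodendrocyte markers (Tmem119, 0.00065). Without the 3 libraries the list medians were 0.23 for stage 2 and 0.19 for stage 1, and none of the 3 lists held a call. With Xist as a covariate, added after seeing the data because the sexes were unequal, the medians were 0.20 for stage 2, 0.14 for stage 1 and -0.20 for homeostatic genes.

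**Figure D5:**
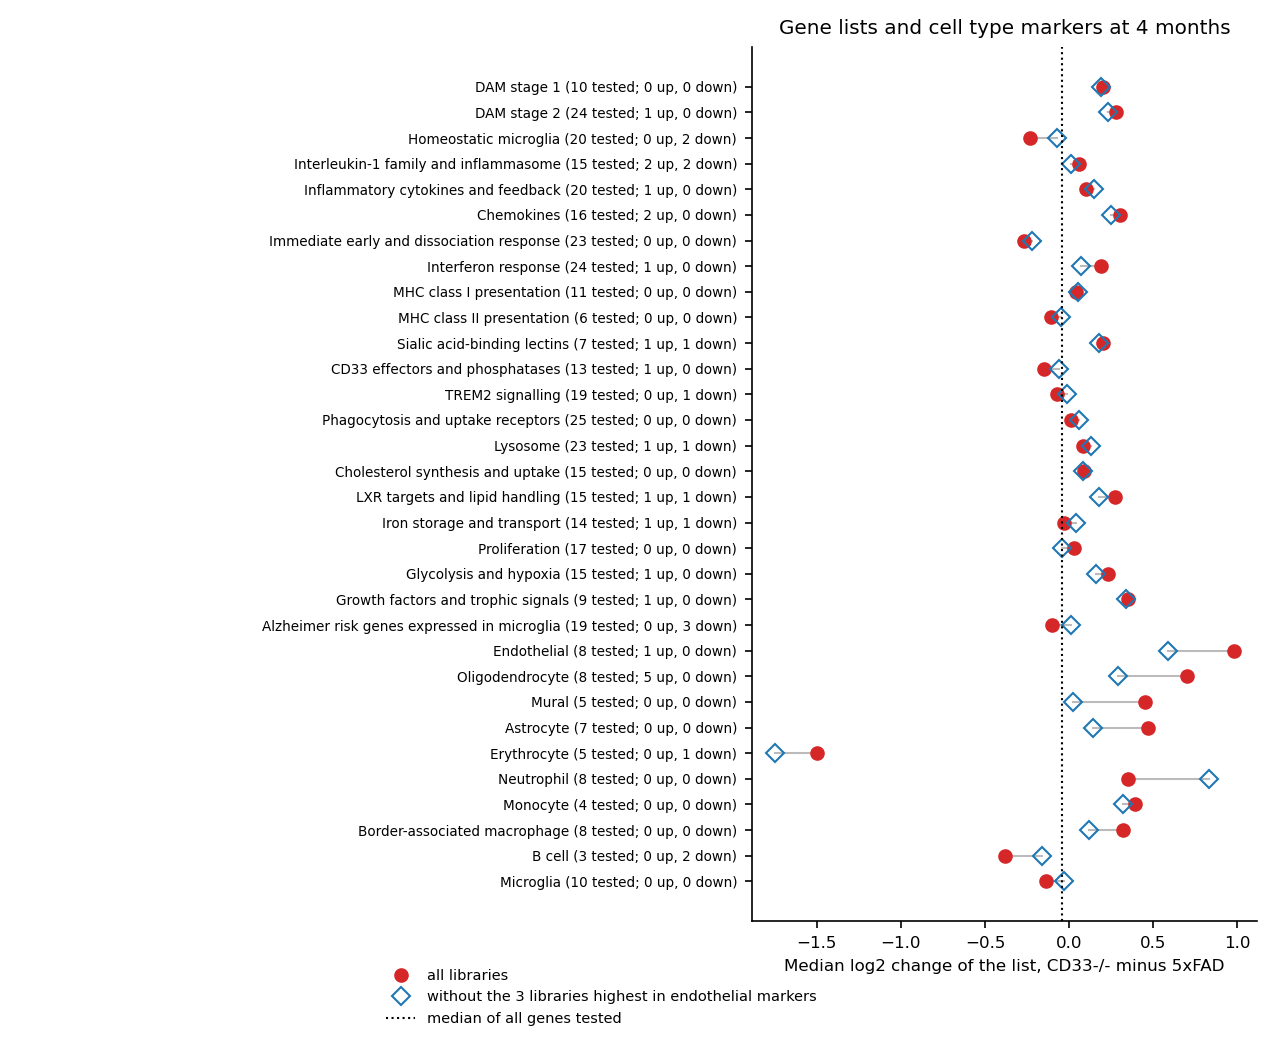
Each row is 1 gene list with its tested members and calls, and the x axis gives the median log2 change of the list in CD33 knockout against 5xFAD, with all libraries (filled circles) and without the 3 libraries highest in endothelial markers (open diamonds); the dotted line is the median of all tested genes. The homeostatic median moves from -0.23 to -0.07 and the oligodendrocyte median from 0.70 to 0.29, while the DAM stage 2 median is 0.28 and 0.23.

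Genes through which human CD33 is known to act were listed as CD33 effectors and phosphatases. Of these 13 genes 1 was called: Ptpn11, which encodes SHP-2, rose by 0.19 (SE 0.055, limma adjusted p = 0.0453). The list median was -0.15 with 2 of 13 above 0, 8 had an unadjusted p under 0.05, and voom called 2. Over all tested genes 4.90% were called in limma and 7.85% by voom, and 27.6% had an unadjusted p under 0.05. Among 7 tested sialic acid-binding lectins, Cd33 was lower and Mag, a lectin of myelin that also stands in the oligodendrocyte list, was higher (0.34). Of 19 genes of TREM2 signalling 1 was called lower, Vav2, a guanine nucleotide exchange factor (-0.34), with a list median of -0.07, 7 at an unadjusted p under 0.05 and 2 called by voom. Of 19 Alzheimer's risk genes expressed in microglia 3 were called lower, against 3.00% of all tested genes: Cd33, Abi3, an actin regulator (-0.34), and Spi1, the myeloid transcription factor PU.1 (-0.34). Abi3 and Spi1 were lowest in knockout replicates 2 and 3 and stood at -0.11 and -0.13 without the 3 libraries. The risk list had 8 members at an unadjusted p under 0.05 and 4 called by voom.

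Uptake and metabolic lists, of 9 to 25 tested genes, held at most 2 calls each, where 4.90% of all tested genes were called. No gene of 25 phagocytosis and uptake receptors was called in limma (median 0.01), nor of 15 cholesterol (0.09) or 17 proliferation genes (0.03). Unadjusted p-values were under 0.05 in 8, 2 and 1 of them, and voom called 1 cholesterol gene and none of the others. In the lysosome list Atp6v1a, a proton pump subunit, was higher (0.27) and Tfe3, a transcription factor for lysosomal genes, was lower (-0.30), with a median of 0.08 over 23 genes. In the list of LXR targets and lipid handling Fabp5 was higher and Mylip, a ligase that degrades the LDL receptor, lower (-0.46), with a median of 0.27 over 15 genes. Of 15 glycolysis and hypoxia genes Slc2a1 was called (median 0.23), and of 9 growth factors Areg, amphiregulin (0.80, median 0.35). Of 14 iron genes Ftl2 was higher and Ftl1 lower (median -0.03). Without the 3 libraries the calls left in any list were Cd33, Ftl1 and Ftl2.

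The 8-month table gave the same contrast in other libraries, normalized separately. There 374 of 11345 genes passed in limma (3.30%), 335 higher and 39 lower. Without single 5xFAD libraries the count was 249 (replicate 1), 215 (replicate 4), 188 (replicate 5), 196 (replicate 6), 194 (replicate 7) and 236 (replicate 10). Without single knockouts it was 207 (replicate 3), 212 (replicate 5), 246 (replicate 6), 243 (replicate 11) and 207 (replicate 7, the library labelled CD33 knockout that held Cd33), and it was 277 to 561 without any one of the other 12. Of 563 calls at 4 months that were tested at 8 months, 84 were called again (14.9%), each in the same direction, 66 higher and 18 lower. They are 22.5% of the 373 calls at 8 months that were tested at 4 months. Of the 24 such calls within 10 Mb of Cd33, 19 were called again (79.2%), and of the 18 features kept without each library and tested at 8 months, 16. Ftl2, Gm15545 and Slc6a16 are among these 16. They were tested at 4 months only because CD33-/- libraries reached 1 RPKM, and give no separate support. Klk8 changed by -1.95 (SE 0.14, adjusted p = 1.97e-09) at 8 months, Ftl1 by -2.52 (adjusted p = 1.32e-08), Ftl2 by 5.09 (adjusted p = 6.64e-11), Fcgrt by 0.61 (adjusted p = 3.04e-09) and Slc6a16 by 2.24 (adjusted p = 5.98e-09). Il1b, Il1rn and Cxcl1 did not pass at 8 months (0.41, 0.07 and 0.33, adjusted p = 0.572, 0.906 and 0.707), nor did Apoe (0.10, adjusted p = 0.811). Nostrin, Plat and Fmo2 passed there as well (1.21, 1.23 and 1.19, adjusted p = 0.00724, 0.0132 and 0.0109). The summed RPKM of the endothelial markers was 228.2 to 913.7 in the 12 knockouts and 132 to 466.7 in the 11 5xFAD libraries at 8 months. A fit with these markers as a covariate called 13 genes in place of 374. Because the marker sums differed between the genotypes, this fit cannot separate genotype from cell content. The part of endothelial content in the 8-month calls was not tested. Differences between the ages were not tested, since the tables were normalized separately.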

How the data were processed

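Members, gene lists and comparisons were chosen with earlier results of these data known. The deposited values are RPKM, made by the authors. The submitters' processing notes name STAR, HTSeq and edgeR, the last with no role, and the build mm10 (GRCm38); versions, annotation and strand setting are not given there. RPKM times gene length was a whole number of reads for 100% of values (tolerance 0.05 reads). No 2 libraries of a group agreed within sampling noise (chi-square at least 11.6 per degree of freedom, 42 pairs). limma 3.58.1 (R 4.3.3, trended, robust, two-sided) ran on log2(RPKM + 0.5), which understates changes at low values, over all 26 libraries at 4 months, for genes with RPKM of at least 1 in 2 libraries, with Benjamini-Hochberg adjustment. It was tested on simulated data. Positions came from GENCODE mouse release M21, which held 37607 of 39179 IDs. By rule, Cd33, Trem2, the 12 largest increases and decreases among calls with a mean RPKM of at least 2 and an ordinary symbol, the 12 calls of smallest p near Cd33 (10 Mb), calls kept in all fits and up to 4 members per list were named, a few items excepted that are not reported here. Read numbers and floors cover counting error only.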

Additional observations from a re-analysis of the deposited data

Results flagged for a closer look

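In a check for single libraries far from the others of their group, 21 of 141 groups of values stood out (14.9%), where chance marks about 1 in 20. In CD33 knockout, replicate 4 was far below the other 3 for Apoe (1685 RPKM) and Lyz2 (559.6 RPKM) and far above them for Gpr165 (6.757 RPKM).

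In 5xFAD, replicate 1 was far above the other 8 libraries in most of these genes, and it is also the library with the highest endothelial sum. Its values were 70.31 RPKM for Flt1, 299.9 for Slc2a1, 11.22 for Nostrin, 31.65 for Plat, 30.26 for Ndrg1, 6.45 for Fam107a and 14.59 for Xdh. They were 2.511 for Map3k6, 5.798 for Stra6, 3.977 for Fmo2, 28.51 for Cxcl12, 26.97 for the myelin gene Mal and 118.4 for Fcgrt. The second identifier of Slc6a16 had 0.0502 RPKM there. Other 5xFAD libraries stood out in 4 genes: replicate 10 was lowest for Ftl1 (171.7 RPKM), replicate 13 highest for Gm23062 (0.285 RPKM, 1 read), replicate 4 highest for Ighj3 (39.1 RPKM) and replicate 6 highest for Ftl2 (0.1282 RPKM, 2 reads).

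Knockout replicate 2 held 10.59 RPKM of Y-linked genes together with Xist. This pair of measures decided which libraries an alternative fit left out, and Xist alone served as a covariate in another.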

How the results depend on the processing

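The 638 calls at 4 months became 1964 with the title code as a term, 5084 with array weights, 1022 with voom on recovered reads, 216 with no filter, 26 with only the 2 groups in the fit and 4 in the title codes shared by both groups with the code also a term. A covariate of endothelial markers gave 23, one of oligodendrocyte markers 14 and Xist 244; 22 remained without libraries that hold Xist beside Y-linked reads, and 17 without the 3 libraries highest in endothelial markers. The last and the Xist covariate were added after seeing the data. Leaving out 1 library gave 22 to 2343 at 4 months and 188 to 561 at 8 months. The 374 calls at 8 months became 13 with the endothelial covariate and 207 without the library labelled CD33 knockout that held Cd33. With the replicate number as a block (replicate block) 19 genes passed at each age. The numbers do not pair the libraries: 2 numbers are shared at 4 months, with correlations of -0.5 and -0.11, and 4 of 11 at 8 months were over 0.1. Shares of higher calls moved to 46.4% with the title code, 52.3% with no filter and with voom, and 45.3% with median-ratio scaling.

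Of 63 called genes named here, 16 kept their call without the 3 libraries and 47 lost it. Over 2045 alternative values for 71 named genes, 4 changed sign: Trem2 (-0.03 with the replicate block, -0.0014 to 0.09 over the fits without 1 library, below 0 without knockout replicate 1), P2ry12 (0.03, endothelial covariate) and Tmem119 (0.00065, oligodendrocyte covariate). The cause was not tested. Ftl2, Klk8, Cd33 and Slc6a16 (ENSMUSG00000094152) kept their calls in every alternative in which they were tested. edgeR and DESeq2 were planned and not run, since the values are RPKM and not counts. With 4 knockout libraries of unequal cell content and sex, small changes of widely expressed genes cannot be told apart from these differences.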
